A study of Mus musculus with 2 samples.

Results

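The Mir148 and Mir152 family is a set of 3 mouse microRNA (miRNA) genes, Mir148a, Mir148b and Mir152. They were taken by GENCODE symbol from the 1973 miRNA genes counted in embryonic limb. Each of the 3 was found in the count tables on its own row. Rows were picked by name, but the members were chosen with earlier results of these data known.

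A miRNA is cut from a hairpin RNA and guides Argonaute proteins to messenger RNAs, mainly through its seed, the bases near its 5′ end. Members of 1 seed family can repress the same messenger RNAs, so their summed level counts as well as each one's own. Members of this family are known as repressors of the DNA methyltransferase Dnmt1, and Mir148a is also known for roles in adipocyte and osteoclast formation and in liver lipid metabolism.

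Limbs came from Mus musculus embryos of strain B6NCrl at embryonic day 15.5, with males and females pooled and with no mutation or treatment named in the labels. Replicate 1 was pooled from 78 embryos and replicate 2 from 62. The labels give a fragment size below 30 nt and total RNA as the starting material. There was 1 group and no second tissue, stage or treatment, so levels are described and the 2 pools are set side by side. All tissues of the limb were in each pool, so fewer cells of a type and less miRNA per cell cannot be told apart.

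The 3p arms are shown first, because they share the seed that defines the family. RefSeq mature sequences on GRCm38.p6 are written 5′ to 3′, with the seed (bases 2 to 8) in capitals.
mmu-miR-148a-3p: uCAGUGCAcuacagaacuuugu
mmu-miR-148b-3p: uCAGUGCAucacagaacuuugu
mmu-miR-152-3p: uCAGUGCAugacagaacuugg
All 3 carry the seed CAGUGCA. Of 1738 mature mouse miRNAs in the RefSeq table, these 3 were the ones with it at bases 2 to 8. Outside the seed, miR-148a-3p and miR-148b-3p differed by C9U and U10C, where positions count from 1 at the 5′ end and the first-named miRNA's base stands first. The pair miR-148b-3p and miR-152-3p differed by C10G and U20G. Identity over the bases compared was 90.9% for the first pair and 90.5% for the second, and 85.7% between miR-148a-3p and miR-152-3p.

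The 5p arms are shown next, and they were compared base by base from the 5′ end without gaps.
mmu-miR-148a-5p: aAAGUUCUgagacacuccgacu
mmu-miR-148b-5p: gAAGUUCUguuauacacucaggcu
mmu-miR-152-5p: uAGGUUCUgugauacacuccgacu
Bases 2 to 8 were AAGUUCU in miR-148a-5p and miR-148b-5p and AGGUUCU in miR-152-5p. In this alignment the 5p arms of Mir148a and Mir148b were identical at 59.1% of bases. For Mir148a and Mir152 the value was 54.5%, and for Mir148b and Mir152 it was 79.2%. An alignment without gaps can miss shared sequence, and these arms differ in length (22 bases in Mir148a, 24 in Mir148b and Mir152). The lower values therefore do not show that the 5p arms diverged further than the 3p arms. The longest stretch common to Mir148a and Mir152 was 11 bases in the 5p arms and 9 in the 3p arms. The counts were made per gene, so reads of the 2 arms of a hairpin cannot be separated here.

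The precursor hairpins are given because they set which reads could be assigned to 1 gene. The 3p arm is in capitals.
Mir148a hairpin: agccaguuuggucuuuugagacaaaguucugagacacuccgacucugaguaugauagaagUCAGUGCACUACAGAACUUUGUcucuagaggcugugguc
Mir148b hairpin: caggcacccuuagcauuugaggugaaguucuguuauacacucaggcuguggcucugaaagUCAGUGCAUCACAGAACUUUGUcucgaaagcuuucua
Mir152 hairpin: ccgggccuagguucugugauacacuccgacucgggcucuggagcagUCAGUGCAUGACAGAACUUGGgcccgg
The longest stretch that Mir148a shared with any other counted precursor was 15 bases, with Mir148b, and for Mir152 it was 12 bases, with Mir148a. None of the 3 shared a stretch of 20 bases with another counted precursor, and the same held for stretches of 16 and 18 bases. A stretch of 20 bases was shared by 71 of the 340 detected miRNA genes (20.9%). Reads with several alignments, 29.4% of replicate 1 and 29.7% of replicate 2, were assigned to no gene. Matches elsewhere in the genome were not analysed here.

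Mir148a was the leading member in the limb and held most of the family's counts in both pools. It had 5794 sense counts in replicate 1 and 6788 in replicate 2, out of 4263630 and 5151214 sense counts over all miRNA genes. Scaled to 1000000 sense counts (CPM), its level was 1359 in replicate 1 (Wilson 95% interval 1324 to 1394). In replicate 2 its level was 1318 (1287 to 1349). The mean was 1338 ± 29.1 CPM (SD, n = 2). Detection needed 10 or more sense counts in each pool. Among the 340 genes detected, Mir148a ranked 87 in each replicate.

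Mir152 was the second member by level. It had 971 sense counts in replicate 1 and 1104 in replicate 2, or 228 CPM (Wilson 95% interval 214 to 243) and 214 CPM (202 to 227). Its mean of 221 ± 9.49 CPM (SD, n = 2) ranked 156.

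Mir148b was the lowest of the 3. It had 653 sense counts in replicate 1 and 922 in replicate 2, or 153 CPM (Wilson 95% interval 142 to 165) and 179 CPM (168 to 191). Its mean of 166 ± 18.3 CPM (SD, n = 2) ranked 171, close to the median level of detected genes (167 CPM).

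The order Mir148a, Mir152, Mir148b was the same in both pools, and the ranges of neighbouring members did not overlap. With 2 replicates this order carries no test, and whether the sequences of the members were captured equally is not known from these data. Mir148a exceeded Mir148b 8.87-fold in replicate 1 (exact 95% interval 8.18 to 9.64) and 7.36-fold in replicate 2 (6.87 to 7.90). It exceeded Mir152 5.97-fold in replicate 1 (5.57 to 6.39) and 6.15-fold in replicate 2 (5.77 to 6.56). Mir148b stood at 0.673 times the count of Mir152 in replicate 1 (0.608 to 0.743) and at 0.835 times in replicate 2 (0.764 to 0.912). These ratios within a library do not depend on how libraries are scaled, and their intervals cover counting error alone.

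**Figure D1:**
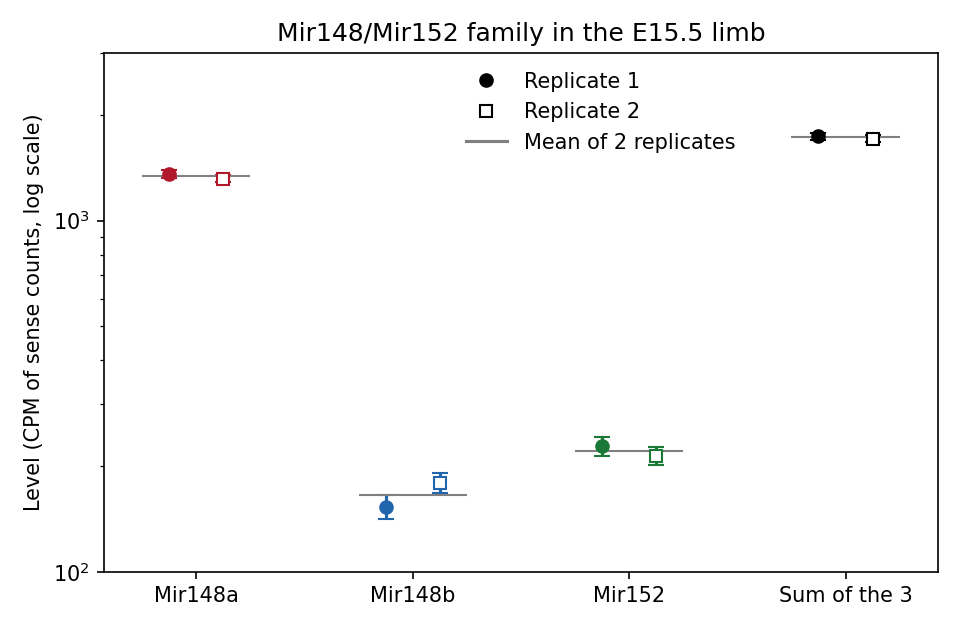
Level of each family member and of their sum in the embryonic day 15.5 limb, in CPM of sense counts on a log axis. Filled circles are replicate 1, open squares replicate 2, bars are Wilson 95% intervals and grey lines the means of 2 replicates. Mir148a lies at 1318 and 1359 CPM, and Mir152 and Mir148b lie between 153 and 228 CPM.

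Together the 3 genes had 1740 CPM in replicate 1 (Wilson 95% interval 1701 to 1780) and 1711 CPM in replicate 2 (interval 1676 to 1747), a mean of 1725 ± 20.3 CPM (SD, n = 2). Of the family counts, Mir148a supplied 78.1% in replicate 1 (Wilson 95% interval 77.2 to 79.0) and 77.0% in the other pool (76.1 to 77.9). Mir152 supplied 13.1% in replicate 1 (12.3 to 13.9) and 12.5% in replicate 2 (11.9 to 13.2). Mir148b supplied 8.80% in replicate 1 (8.18 to 9.47) and 10.5% in replicate 2 (9.84 to 11.1). For Mir148a and Mir152 the intervals of the 2 pools overlapped, and for Mir148b they did not. No antisense count was found at any member in either pool, where a count of 0 allows up to 3 counts per gene and library.

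Between the pools Mir148b differed beyond counting noise, and Mir148a and Mir152 did not pass the threshold. Mir148b was lower in replicate 1, with a CPM ratio of replicate 1 over replicate 2 of 0.856 (exact 95% interval 0.773 to 0.947). On the log2 scale this was -0.22, past the threshold by the exact binomial test with Benjamini-Hochberg adjustment over the 340 detected genes (adjusted p = 0.00508). Mir148a had a ratio of 1.03 (0.996 to 1.07), with an adjusted p of 0.145 by the same exact test. For Mir152 the ratio was 1.06 (0.974 to 1.16), with an adjusted p of 0.255 by the same exact test. The ratio of the family sum was 1.02 (0.986 to 1.05).

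By this test 173 of the 340 detected genes (50.9%) passed between the pools, 87 (25.6%) higher and 86 (25.3%) lower in replicate 1. With 1 of 3 members called against that background, the count is no result about the family. A larger absolute log2 ratio than that of Mir148b was found for 161 detected genes, than that of Mir152 for 265, and than that of Mir148a for 302. The test compares 2 libraries with counting noise and says nothing about conditions. With DESeq2 size factors in place of sense totals, Mir148a also passed the threshold of the exact test, with 0.065 on the log2 scale (adjusted p = 0.0256), and across all scalings and filters tried its adjusted p ran from 0.0256 to 0.752.

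**Figure D2:**
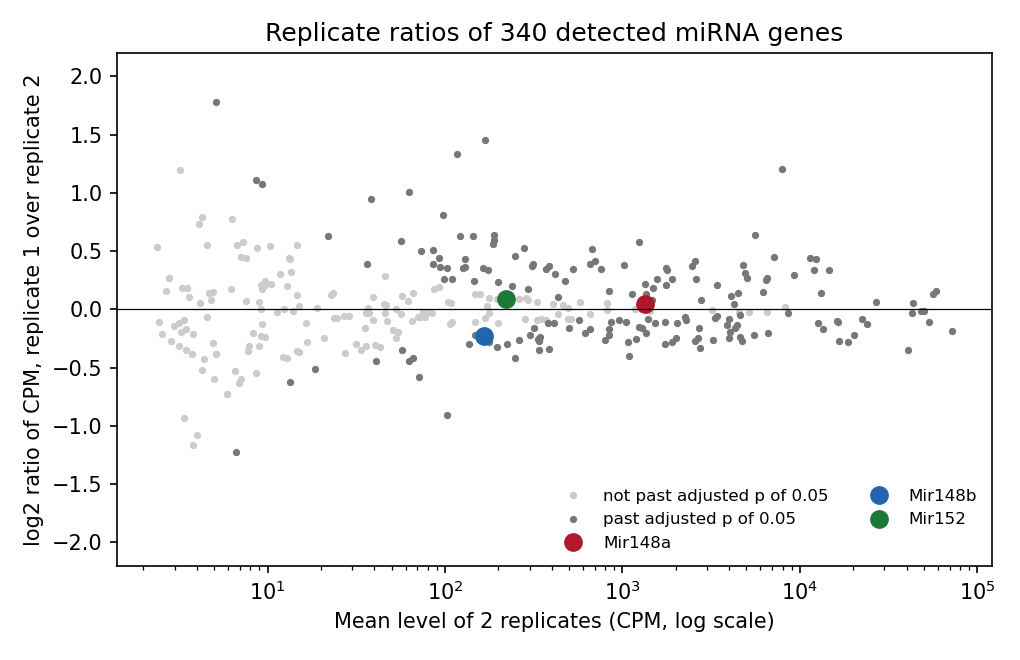
log2 ratio of CPM (replicate 1 over replicate 2) against mean CPM on a log axis for the 340 detected miRNA genes. Dark points passed an adjusted p of 0.05 in the exact binomial test and light points did not. Mir148b (blue) lies at -0.22, and Mir148a (red) and Mir152 (green) lie at 0.044 and 0.088, inside the spread of other genes of like level.

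The labelled tissue was checked against miRNAs known from limb tissues. All 11 listed limb markers were detected. Of these, 4 were called higher and 5 lower in replicate 1, beside 25.6% and 25.3% of all detected genes. Skeletal muscle markers differed most, with a summed level of 11135 CPM in replicate 1 and 4829 CPM in replicate 2. Epidermal markers summed to 83441 CPM in replicate 1 and 94033 CPM in replicate 2, and cartilage markers to 47612 and 45564 CPM. The part of this tissue make-up in the Mir148b difference was not tested. Among markers of other tissues, liver Mir122 had 57.5 CPM in replicate 1 and 86.2 CPM in replicate 2, and the pancreas markers Mir216a and Mir217 summed to 3.05 and 5.24 CPM. Of the blood markers, Mir223 and Mir451a were higher and lay above Mir152 and Mir148b, while Mir144 lay below both members. The leukocyte marker Mir223 had 427 CPM in replicate 1 and 440 CPM in replicate 2. Mir142, also listed for leukocytes, had no row of its own. The row Mir142b had no sense counts, and its antisense counts, 3099 in replicate 1 and 3821 in replicate 2, entered no level here. Erythroid Mir451a had 339 CPM in replicate 1 and 325 CPM in replicate 2, and erythroid Mir144 had 84.2 and 85.8 CPM. The part of blood cells in the members' levels was not tested. The 3 Mir124a copies of neurons had 0 counts, but they share a mature sequence and reads with several alignments were assigned to no gene, so the 0 says nothing of neurons.

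By level over the 2 libraries, the genes most like each member were found by the Euclidean distance of log2(CPM + 1) among detected genes. Nearest to Mir148a was Mir134 of the Dlk1-Dio3 imprinted region (distance 0.0657), with 1414 CPM in replicate 1 and 1288 CPM in replicate 2, followed by Mir28a (0.120) and Mir542 (0.125). Nearest to Mir148b was Mir330 (0.0346), with 151 CPM in replicate 1 and 175 CPM in replicate 2, followed by Mir132 (0.111) and Mir187 (0.130). Nearest to Mir152 was Mirlet7c-1 (0.0430), with 235 CPM in replicate 1 and 215 CPM in replicate 2, followed by Mir350 (0.170) and Mir574 (0.233). Mirlet7c-1 has another copy, Mirlet7c-2, and reads common to both are in neither count. With 2 libraries, likeness here means a similar level in each pool and nothing more.

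The 7 letters of the family seed also occur 1 base earlier, at bases 1 to 7, in miRNAs of the Mir130 and Mir301 family, whose own seed is AGUGCAA. Their 3p arms are shown to make this offset visible, with the shared letters in capitals.
mmu-miR-130a-3p: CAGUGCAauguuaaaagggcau
mmu-miR-130b-3p: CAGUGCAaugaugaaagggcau
mmu-miR-301a-3p: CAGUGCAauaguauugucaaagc
In RefSeq, 7 mature miRNAs had the letters at bases 1 to 7, and 7 others had them further in. Seeds offset by 1 base read different, overlapping target letters, so these are relatives by sequence and not members of the Mir148 and Mir152 family.

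The Mir148 and Mir152 family had a much lower summed CPM than these relatives in the limb. It summed to 1740 CPM in replicate 1 and 1711 CPM in replicate 2, against 20260 CPM in replicate 1 and 24523 CPM in replicate 2 for Mir130a, Mir130b, Mir301 (miR-301a) and Mir301b. It therefore stood at 0.0859 times their level in replicate 1 and at 0.0698 times in replicate 2. Whether the sequences of different families were captured equally is not known from these data. Mir148a alone (1338 ± 29.1 CPM) lay above Mir301 (1073 ± 148 CPM) and below Mir130b (2653 ± 323 CPM; SD, n = 2 each). All 3 of Mir130a, Mir130b and Mir301 were called lower in replicate 1, with log2 ratios of -0.28, -0.25 and -0.28, while Mir301b had 0.0013. Of all detected genes, 25.3% were called lower in replicate 1.

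**Figure D3:**
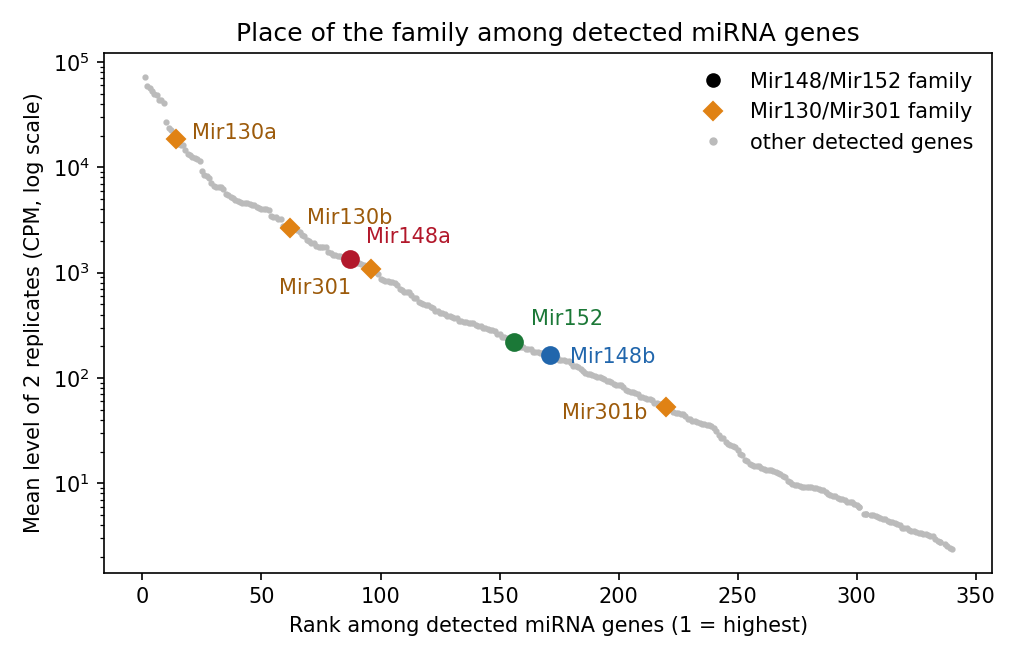
Mean CPM of 2 replicates on a log axis against rank for the 340 detected miRNA genes. Coloured circles mark the Mir148 and Mir152 family, orange diamonds the Mir130 and Mir301 family, and grey points all other detected genes. Mir148a is at rank 87, between Mir130b at 62 and Mir301 at 96, and Mir152 and Mir148b are at 156 and 171.

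Families whose genes lie in introns of paralogous hosts give another setting. Mir26 genes lie in introns of Ctdsp phosphatase genes, and Mir103 and Mir107 genes in introns of Pank pantothenate kinase genes. The Mir148 and Mir152 family was at 0.0763 times the summed Mir26 level in replicate 1 and at 0.0687 times in replicate 2. Relative to Mir103-1, Mir103-2 and Mir107 it stood 1.63-fold higher in replicate 1 and 1.49-fold higher in replicate 2. Equal capture of these families is not known either. The copies of Mir26a and of Mir103 share mature sequences, so reads common to them are in none of these sums, while the Mir148 and Mir152 precursors share no stretch of 16 bases.

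The 3 genes lie on different chromosomes (GENCODE M21 on GRCm38, the assembly also called mm10). Mir148a (ENSMUSG00000065505.1) is at chr6:51269812-51269910, minus strand, and overlaps no other gene annotated on that strand. Mir148b (ENSMUSG00000065560.1) is at chr15:103285125-103285221, plus strand, in intron 1 of the coding transcripts of Copz1. Mir152 (ENSMUSG00000065515.1) is at chr11:96850393-96850465, plus strand, in intron 1 of the coding transcript of Copz2 that covers it. Copz1 and Copz2 encode alternative zeta subunits of the COPI vesicle coat. The intergenic member was thus the highest, and the 2 in Copz introns were the lowest. Host transcripts were not measured in these libraries.

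Mir152 is 482 kb from Hoxb1 and Mir148b is 248 kb from Hoxc4, genes of the Hox clusters that pattern the limb and body axis. Within 1 Mb of a Hox gene lay 17 of 1894 annotated miRNA genes in the tables (0.898%). Of those 17, 9 were detected in the limb, beside 340 of all 1894, and all 3 family members were among the 9. These 9 made up 2.65% of the 340 detected genes. The other 6 lie in or beside the clusters. Mir196b (40763 ± 6885 CPM), Mir10b (8209 ± 81.5 CPM) and Mir10a (3339 ± 125 CPM) were above all 3 members, while Mir615 (840 ± 89.9 CPM; SD, n = 2 each) lay below Mir148a and above Mir152 and Mir148b. Mir196a-1 had 8.94 ± 0.291 CPM and Mir196a-2 had 799 ± 102 CPM (SD, n = 2). These copies encode the same mature miR-196a-5p, so reads common to them are in neither count and the copies are not ranked against the members.

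An Nfe2 gene and then a Cbx gene were found on 1 side of each of the 3 members, with an Hnrnpa gene between them at Mir148a and Mir148b. From Mir148b, Nfe2 lay at 26.7 kb, Hnrnpa1 at 38.4 kb and Cbx5 at 45.3 kb. From Mir148a, Nfe2l3 lay at 163 kb, Hnrnpa2b1 at 191 kb and Cbx3 at 200 kb. From Mir152, Nfe2l1 lay at 20.4 kb and Cbx1 at 41.8 kb. The Nfe2 genes encode cap'n'collar transcription factors, the Hnrnpa genes RNA-binding proteins, and Cbx1, Cbx3 and Cbx5 the heterochromatin protein 1 variants. These neighbouring families were picked after the annotation around the members was seen.

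**Figure D4:**
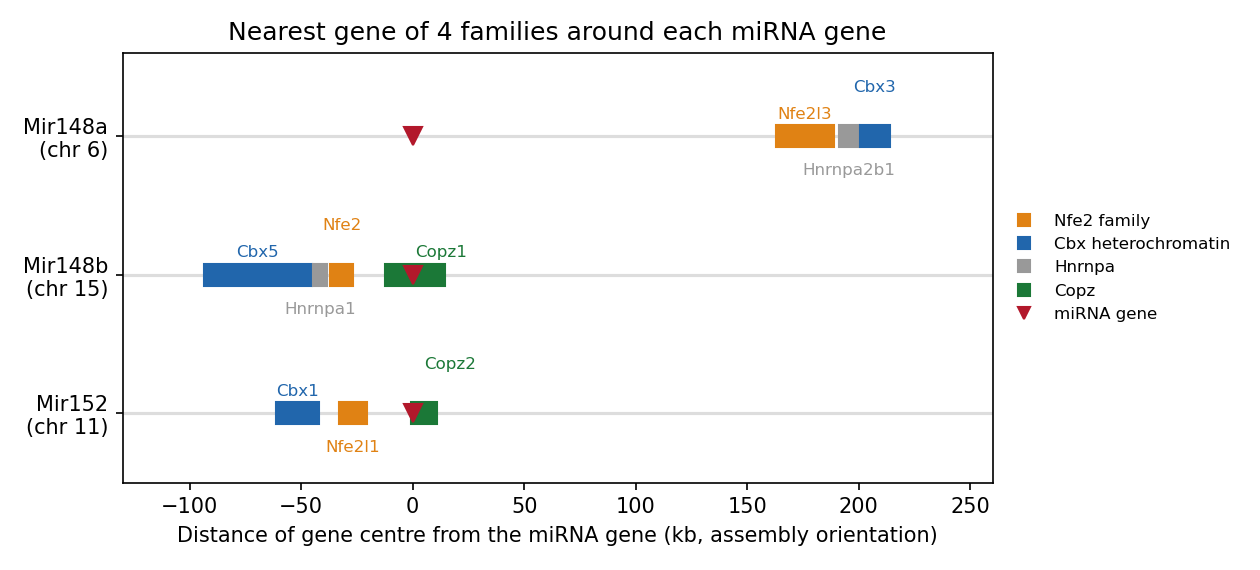
Distance in kb (assembly orientation) of the centre of the nearest Nfe2, Cbx, Hnrnpa and Copz gene from each family member, where the chromosome has one. Red triangles mark the miRNA genes at 0 and bars are drawn to gene length. In each row an Nfe2 gene lies nearer to the miRNA than the Cbx gene on the same side.

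The family belongs to a wider set of 13 miRNA genes reported to act on DNA methyltransferases. Of these, 11 were detected, and 2 were called higher and 3 lower in replicate 1, beside 25.6% and 25.3% of all detected genes. Their median log2 ratio was 0.044, against -0.0205 over all detected genes. These values include the 3 family members. Without them 8 genes were detected, 2 called higher and 2 lower in replicate 1, with a median of 0.0265. Mir148a, Mir148b and Mir152 summed to 1725 ± 20.3 CPM of the list's 38141 ± 293 CPM (SD, n = 2). Most of the list came from the endothelial miRNA Mir126a, with 22336 ± 903 CPM, and from Mir143 of smooth muscle and fibroblasts, with 9222 ± 1311 CPM. Mir148a (1338 ± 29.1 CPM) was at a level near that of Mir101b (1199 ± 149 CPM), and above Mir185 (176 ± 2.35 CPM), Mir29a (126 ± 22.0 CPM) and Mir29c (39.3 ± 2.09 CPM). Members of the Mir29 family repress Dnmt3a and Dnmt3b, and copies of Mir29b share reads that are not in these counts.

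In a list of 12 miRNA genes reported in osteoclast formation, 10 were detected. Of these, 2 were called higher and 4 lower in replicate 1, beside 25.6% and 25.3% of all detected genes. The median log2 ratio was -0.0332, against -0.0205 over all detected genes. Without Mir148a it was -0.0419 over 9 detected genes. Mir148a, which promotes osteoclast formation, was the fourth by level. Above it lay Mir214 (20274 ± 2148 CPM), Mir21a (6562 ± 78.6 CPM) and Mir503 (1779 ± 295 CPM). Below it lay Mir223 (433 ± 8.91 CPM), Mir31 (387 ± 64.0 CPM), Mir34a (382 ± 22.3 CPM) and Mir155 (196 ± 30.5 CPM; SD, n = 2 for all). None of these genes is restricted to osteoclasts, and no cell type was measured apart.

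Messenger RNAs were not measured, but the reference shows where the shared seed could pair. The letters TGCACTG, complementary to bases 2 to 8, were searched on the sense strand of the longest annotated 3′ UTR of each gene. They were found in 10 of 13 genes reported as targets of the family and in 12.7% of 21027 genes. Among genes whose 3′ UTR was within 20% of the length of each listed gene's, a mean of 21.5% held them. The longer TGCACTGA, which adds an A opposite base 1 and contains the first motif, was found in 5 of the 13 and in 3.58% of all genes. Among the genes of like length, a mean of 6.15% held this longer motif. Genes were listed because they are reported targets, in part through such matches, so the share is a description.

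The windows below show a match in Dnmt1, the maintenance DNA methyltransferase gene, and 1 in Itga5, chosen because it lies close to a family member. Each has 22 bases from GENCODE M21 on GRCm38, with the 7-base match in capitals.
Dnmt1 (minus strand, chr9:20907491-20907512): cccagagccccacgTGCACTGa
Itga5 (minus strand, chr15:103344398-103344419): ttctgcccaccagcTGCACTGa
Both windows carry the A after the match. Of the 2 matches in Itga5, the one not shown lacks this A. The Dnmt1 match began at base 23 of a 3′ UTR of 312 bases, a length at which 3.12% of genes held TGCACTG. Itga5, a fibronectin receptor subunit gene 59.1 kb from Mir148b, held TGCACTG at 2 places in a 3′ UTR of 983 bases, a length at which 9.90% of genes held it. No match was found in Igf1r, Irs1 or Cdkn1b, which says only that these letters are absent from the annotated sequence searched.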

How the data were processed

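MicroRNA-seq libraries of 2 limb pools were analysed. The authors' deposited tables hold raw read counts per miRNA gene (assembly mm10, annotation M4), per the README deposited with them. The aligner and counter are not given in the sources used here. The 3 unlabelled columns were read as total, sense and antisense counts, since the first equalled the sum of the others for all 1973 genes. By Ensembl identifier 1894 genes matched GENCODE M21.

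CPM is the sense count over the sum of all sense counts in that library, times 1000000. Unmapped reads were 19.7% and 18.8% and reads outside miRNA genes 4.54% and 3.99% of the libraries, and these lines entered no total. Detection needed 10 sense counts in both replicates. Each detected gene was compared between the pools with a two-sided exact conditional binomial test and Benjamini-Hochberg adjustment (threshold 0.05). The test was checked on simulated libraries that held known changes and counting noise, with no variation between pools. Such a check cannot show how the test behaves under variation between pools. A quasi-likelihood test needs replicates within groups and could not be used. Wilson and exact intervals and the floor of 3 counts cover counting error only, as no molecular identifiers are named in the sources used here. Pools are biological replicates per the labels.

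Alternatives were TMM factors (edgeR 4.0.16), DESeq2 1.42.0 size factors, all reads as denominator, both strands, other count minimums, Fisher's exact test and each replicate left out. Software was Python 3.11.15, scipy 1.17.1 and R 4.3.3. Mature and hairpin sequences came from RefSeq (GRCm38.p6), with all 6 mature and 3 hairpin sequences matched by symbol. Named genes are the members, the lists and families described, and the 3 nearest genes by level to each member. Some listed genes are not reported here. Members and lists were chosen with earlier results of these data known.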

Additional observations from a re-analysis of the deposited data

How the results depend on the processing

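Direction and side of the threshold were the same under the 7 other settings for Mir148b and Mir152, and for Mir148a except with DESeq2 size factors (log2 ratio 0.065, adjusted p = 0.0256, exact binomial test), where the change of scale alone moved every log2 ratio by 0.0205. With all reads of the library as denominator, levels became 628 CPM for Mir148a, 78.0 for Mir148b, 104 for Mir152 and 810 for their sum, since miRNA sense counts were under 50% of reads. Counted irrespective of strand, Mir148a had 1293 CPM at rank 88, Mir152 rank 157 and the sum 1668 CPM, because antisense counts of other genes enter the total. Leaving out 1 replicate each gave 1318 to 1359 CPM for Mir148a, 153 to 179 for Mir148b, 214 to 228 for Mir152 and 1711 to 1740 for the sum. Genes past the threshold numbered 167 to 184. Within 500 kb of a Hox gene lay 2 members instead of 3. No paired analysis was possible because there was 1 group. With 653 and 922 counts, Mir148b was the member with the least depth.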

Other observations

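The 7 letters of the family seed also lay inside mature miRNAs outside the seed position. They began at base 12 of miR-17-5p, miR-106b-5p and miR-106a-5p, whose genes Mir17, Mir106b and Mir106a had 13424 ± 1088, 3978 ± 470 and 53.0 ± 6.30 CPM (SD, n = 2). In miR-139-5p they began at base 5, and its gene Mir139 had 1766 ± 181 CPM, while Mir130c, Mir6341 and Mir6389, with the letters at bases 1 to 7, had 0 counts in both pools.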
